A study of Mus musculus with 8 samples.

Results

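The 10 liver endothelial genes described here were followed across the mice of a diet and tumour study. Of these, 6 are genes of the differentiated sinusoid (Stab1, Stab2, Clec4g, Lyve1, Gata4 and Oit3), 3 are genes of capillarized or large-vessel endothelium (Plvap, Cd34 and Vwf), and 1 is common to all endothelium (Pecam1). They were taken by symbol from the 32285 genes of the count files, and all 10 were found. Each was read at 2 levels: over all nuclei of a mouse with at least 300 detected genes (79446 of 80575 barcodes), and within endothelial nuclei, meaning those with at least 2 UMIs (unique molecular identifiers, each standing for 1 captured RNA molecule) over Ptprb, Flt1 and Adgrl4. The second set held 9598 nuclei, with a range of 785 (WD tumour 2) to 1633 (RD no tumour 3) per mouse.

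The study sequenced single nuclei from snap-frozen whole livers of 8 male DIAMOND mice, a cross that the labels give as 129A1/SvIm and C57BL/6J. All of them were fed a Western diet, which pairs high-fat food with fructose and glucose in the water. The WD tumour group (n = 3 mice) stayed on it for 48 weeks and had hepatocellular carcinoma, and the RD groups were returned to chow after 36 weeks, with carcinoma in the tumour-bearing RD mice (RD tumour 1 and 2) and none detected in the tumour-free RD mice (RD no tumour 1 to 3). The labels put the end of the study at 48 weeks of age, whereas the text of the series has the feeding begin at 2 months, so the age at sampling is uncertain. No group of this study was kept on chow throughout, diet and tumour differ together between the WD tumour and RD no tumour groups, and tumour and non-tumour tissue are not separated in the labels.

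Liver sinusoids are lined by endothelial cells with open pores and no continuous basement membrane, and these cells clear waste molecules from blood through scavenger receptors. Stab1 and Stab2 encode 2 such receptors, Clec4g encodes a C-type lectin, Lyve1 a hyaluronan receptor, and Gata4 a transcription factor that specifies sinusoidal identity. In capillarization, described in chronic liver injury, the sinusoidal endothelium loses its pores and takes on features of ordinary capillaries. Plvap encodes the protein of the diaphragms that close endothelial pores, Cd34 a sialomucin of capillary endothelium, Vwf the clotting factor carrier stored in large-vessel endothelium, and Pecam1 an adhesion molecule of endothelial junctions that leukocytes also carry.

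On mouse build GRCm38 (GENCODE M21), Stab1 (ENSMUSG00000042286) lies at chr14:31139013-31168641, Stab2 (ENSMUSG00000035459) at chr10:86841198-87008025, Clec4g (ENSMUSG00000074491) at chr8:3707064-3720651, Lyve1 at chr7:110850607-110863239, Gata4 at chr14:63198922-63271692 and Oit3 at chr10:59422958-59441778. Plvap lies at chr8:71497765-71511752, Cd34 at chr1:194938819-194961279, Vwf at chr6:125546774-125686679 and Pecam1 at chr11:106654217-106750628. All 10 are protein-coding, and Cd34 and Vwf are the members on the plus strand. Stab1 overlaps Nt5dc2 on the other strand, Plvap overlaps Gtpbp3, and Stab2, Clec4g and Cd34 overlap antisense models. Whether the counting used strand is not given in the sources used here, so reads of these pairs may not be fully separated.

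Promoter sequences are shown for Stab1, Stab2 and Clec4g, whose CPM in endothelial nuclei was lower in both RD tumour mice than in any RD no tumour mouse. As described further on, none of the 3 passed the adjusted threshold by edgeR. Other endothelial genes were lower there too, and relative to a sum of such genes all 3 overlapped between these groups. They are RefSeq sequences on GRCm38.p6, written 5′ to 3′ on the gene's own strand and ending at its start. Capitals mark AGGAAG or CGGAAG on either strand, letters that ETS-family factors bind, and the last 2 matches in Clec4g overlap.
Stab1, chr14:31168642-31168891, minus strand: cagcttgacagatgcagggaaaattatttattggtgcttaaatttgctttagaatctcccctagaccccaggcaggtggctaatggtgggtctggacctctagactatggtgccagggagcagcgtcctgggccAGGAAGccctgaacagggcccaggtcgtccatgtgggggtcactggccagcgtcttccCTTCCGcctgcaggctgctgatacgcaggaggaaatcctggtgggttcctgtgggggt
Stab2, chr10:87008026-87008192, minus strand: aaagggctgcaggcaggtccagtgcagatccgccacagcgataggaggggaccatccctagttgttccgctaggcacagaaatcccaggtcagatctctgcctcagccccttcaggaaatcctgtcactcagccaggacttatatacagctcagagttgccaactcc
Clec4g, chr8:3720652-3720901, minus strand: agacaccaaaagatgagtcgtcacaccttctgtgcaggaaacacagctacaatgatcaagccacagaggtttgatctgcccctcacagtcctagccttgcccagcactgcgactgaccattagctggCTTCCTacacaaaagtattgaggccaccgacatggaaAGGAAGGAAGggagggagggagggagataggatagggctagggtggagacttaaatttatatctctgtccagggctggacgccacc
The RefSeq table held a promoter for 4 members (these and Cd34). In the 250 bases before the RefSeq start, 4 of 4 held the ETS letters, against 39.2% of 32851 mouse promoters. The single match of Stab2 falls outside the stretch printed, which stops where the GENCODE gene begins. None of the 4 held AGATAA or TGATAA on either strand, which are among the letters read by GATA factors, against 16.6% of all promoters. The forms ending in G (AGATAG and TGATAG) were not searched, and the Clec4g stretch printed holds AGATAG, so GATA letters are not absent from these promoters. These are matches of letters and not measured binding.

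Total UMIs over kept nuclei ranged from 17948627 to 34363108 per mouse, and those of endothelial nuclei from 3405510 to 10034773. RD tumour 1 stood apart: it had exactly 20000 barcodes, and the correlation of its profile with each other mouse was r = 0.792 to 0.879, where pairs of other mice reached 0.983. In RD tumour 1 the members' RNA was spread over all nuclei, so the main results that use this mouse are given with and without it. The other mice had 6049 to 10868 barcodes, and whether a barcode number was set for this library is not given in the sources used here. The part of that number in its gate share and in the spread of its RNA was not tested. Of 78694 distinct barcodes, 748 occurred in more than 1 library and 7 of these were endothelial nuclei in more than 1. Doublets were not called. Between 25.9% (RD tumour 1) and 43.8% (RD tumour 2) of endothelial nuclei also passed the gate of stellate cells, macrophages, lymphocytes or cholangiocytes, and these are called mixed nuclei here.

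The sinusoidal members were concentrated in endothelial nuclei in 7 of the mice. The share of Stab2 UMIs in endothelial nuclei ran from 69.9% (WD tumour 3) to 89.9% (RD no tumour 2), and that of Clec4g from 71.5% (RD tumour 2) to 82.2% (RD no tumour 2). Oit3, a secreted protein gene of the sinusoid, ranged from 65.6% to 85.2% over the same 7 mice. Endothelial nuclei held between 14.5% and 36.9% of all UMIs in those mice, so these shares were well above that of RNA as a whole. RD tumour 1 was different: 23.5% of Stab2 UMIs, 10.98% of Clec4g UMIs and 12.2% of Pecam1 UMIs were in endothelial nuclei, beside 11.6% of all UMIs.

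**Figure D1:**
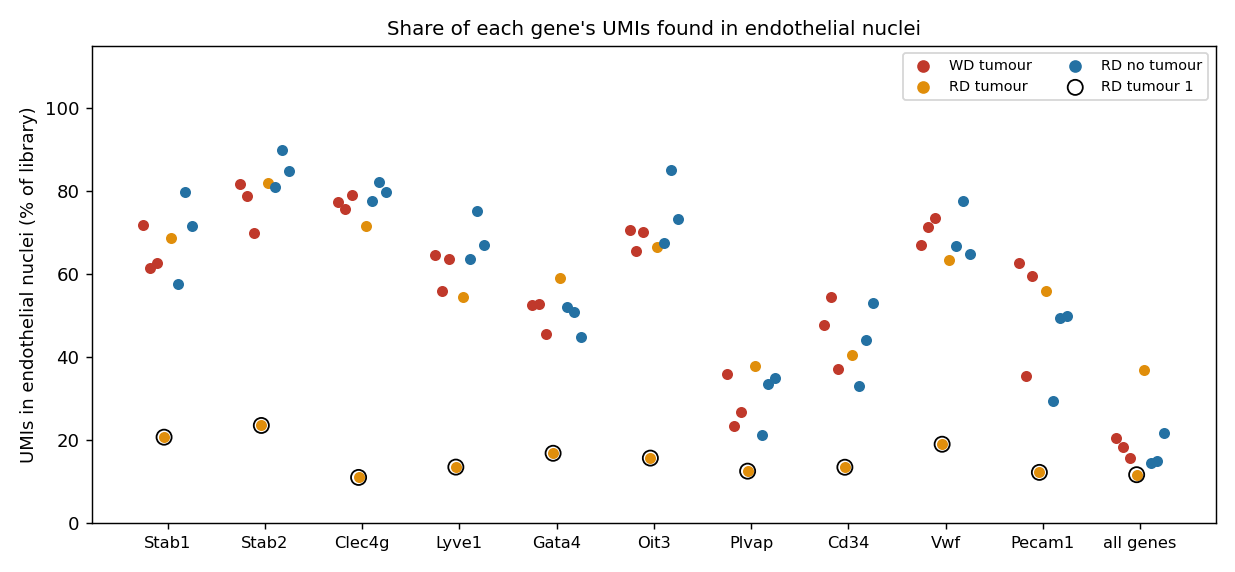
Percent of each gene's UMIs that fell in endothelial nuclei (y axis), for the 10 genes and for all genes together (x axis), 1 point per mouse coloured by group. RD tumour 1 (ringed) lies between 10.98% and 23.5% for the 10 genes, below every other mouse.

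Plvap and Cd34 were less restricted. Plvap UMIs lay in endothelial nuclei at 21.2% to 37.7% outside RD tumour 1, Cd34 UMIs at 33.0% to 54.5% and Vwf UMIs at 63.5% to 77.5%. Pecam1 covered 29.4% to 62.6%, and Gata4 44.9% to 59.0%. Vwf therefore resembled the sinusoidal receptors in this respect, while Plvap was the least restricted member in each of the 7 mice.

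To see where the rest of the UMIs lay, nuclei that passed a single gate were compared. Stab2 had a median over the 8 mice of 1697 CPM (UMIs of the gene per 1000000 UMIs) in endothelial-only nuclei and 55.6 CPM in nuclei with no gate. Stab1 had 422 CPM in endothelial-only nuclei and next most in macrophage-only nuclei, at 80.4 CPM. Gata4 had 258 CPM in endothelial-only and 97.5 CPM in stellate-only nuclei, the perisinusoidal fat-storing cells that are also known to express it. All 6 sinusoidal members and Vwf were highest in endothelial-only nuclei in 8 of 8 mice.

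Plvap, Cd34 and Pecam1 were the exceptions. Plvap had a median of 44.8 CPM in stellate-only nuclei and 27.2 CPM in endothelial-only nuclei, and stellate-only nuclei were the highest class in 6 of 8 mice. In RD no tumour 1, Plvap stood at 101.4 CPM in stellate-only and 45.002 CPM in endothelial-only nuclei, and in RD no tumour 3 at 88.4 and 16.1 CPM. WD tumour 2 was the mouse in which endothelial-only nuclei were highest for Plvap (26.9 against 23.3 CPM), and in RD tumour 1 the highest class was lymphocyte-only, on 4 UMIs in 25 nuclei. Cd34 was highest in stellate-only nuclei in both RD tumour mice, and Pecam1 in macrophage-only nuclei in RD no tumour 3. A whole-liver level of Plvap, Cd34 or Pecam1 is therefore the sum of several cell classes.

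**Figure D2:**
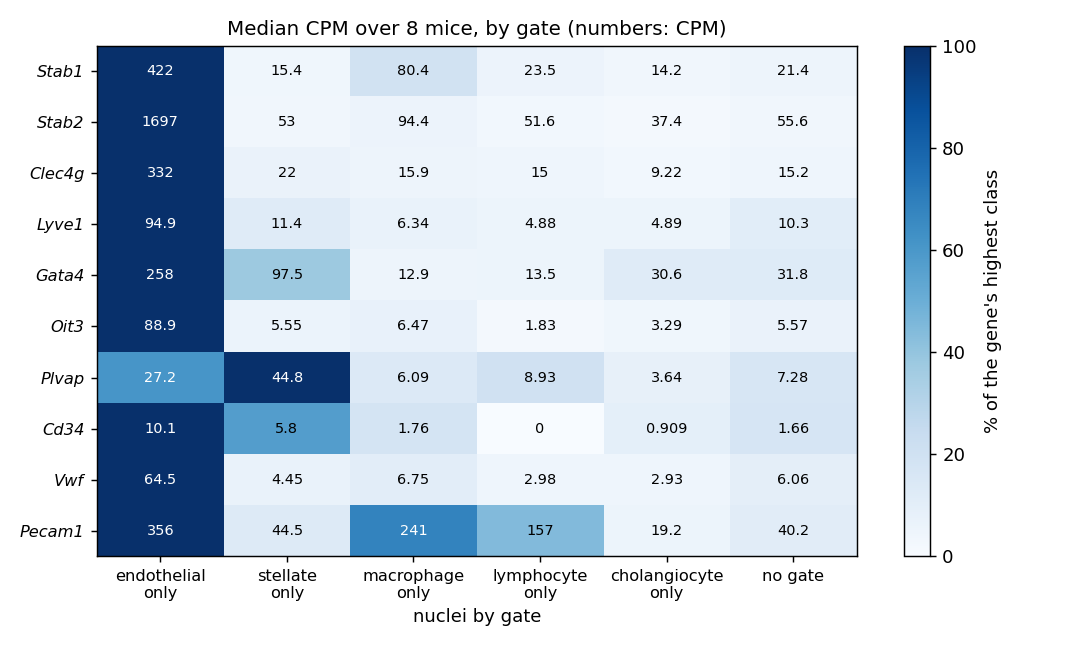
Median CPM over 8 mice of each gene (rows) in nuclei that passed 1 gate or none (columns). Numbers are CPM and shading is the percent of the gene's own highest class. Stab2 reads 1697 CPM in endothelial-only nuclei, and Plvap is darkest in stellate-only nuclei at 44.8 CPM.

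In nuclei with no gate, sinusoidal RNA was present at a low level in each mouse. Endothelial-only nuclei exceeded them 19.0-fold or more for Stab2 in the 7 mice other than RD tumour 1, and 2.71-fold in that mouse. For Clec4g the same ratio was at least 9.52-fold in 7 mice and 1.08-fold in RD tumour 1, and for Plvap at least 1.94-fold and 1.01-fold. The separation of endothelial from other nuclei that the gate relies on was thus nearly absent for Clec4g and Plvap in RD tumour 1. At the edge of the gate, nuclei with exactly 2 gate UMIs had 225 to 888 CPM of Stab2 over the 8 mice, and those with exactly 1 had 41.8 to 274 CPM.

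The share of nuclei inside the endothelial gate was 13.1%, 11.1% and 11.6% in the WD tumour mice, 7.29% and 15.3% in the tumour-bearing RD mice, and 11.5%, 17.7% and 15.8% in the tumour-free RD mice. The groups overlapped. The mean was 11.7% over the 5 tumour-bearing and 15.0% over the 3 tumour-free mice, a log2 difference of -0.38 (two-sided exact permutation test of log2 shares, p = 0.179, n = 5 and 3). With a gate of 1 UMI the difference turned to 0.09 (exact p = 0.571), and with nuclei thinned to 500 UMIs it was -0.75 (exact p = 0.179). Leaving out RD tumour 1 gave -0.22 (exact p = 0.286).

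In all, 3 comparisons were made, and each shares a group with the others: WD tumour against RD no tumour, RD tumour against RD no tumour, and WD tumour against RD tumour. No gene in the genome passed an adjusted p of 0.05 in any of them by edgeR's quasi-likelihood test (Benjamini-Hochberg adjustment), either within endothelial nuclei (0%, or 0 of 15357 genes) or in the whole library (0%, or 0 of 19087). At an unadjusted p under 0.05 the endothelial fits held 330, 1099 and 1379 genes in that order, and the whole-library fits 524, 1279 and 1443. DESeq2 called 13, 79 and 74 genes in endothelial nuclei and 36, 64 and 108 in the whole library. Differences below are accordingly described as values, with their spread over mice.

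Within endothelial nuclei, 9 of the 10 members overlapped between WD tumour and RD no tumour, and Clec4g did not. Normalised Clec4g was 194, 136 and 170 CPM in the WD tumour mice and 276, 437 and 244 CPM in the RD no tumour mice. Every WD tumour mouse lay below every RD no tumour mouse. The log2 fold change was -0.94 ± 0.56 (SE), with an edgeR adjusted p of 1.00, so the difference did not pass the test. Of the 10 members, 1 was lower without overlap in this comparison, where 4.96% of all genes were, so this count is no result about the members. The further Clec4g values below come from the same counts and are no separate support.

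Clec4g kept its sign under all 21 alternatives tried, from -1.22 to -0.55, with an adjusted p of 0.425 to 1.00. It was also lower per 100 pan-endothelial UMIs (the sum over 15 other endothelial genes, among them Cdh5, Tek and Kdr). This ratio was 7.55, 4.33 and 6.66 in the WD mice, 2.22 and 9.23 in the tumour-bearing RD mice, and 8.90, 12.9 and 12.2 in the tumour-free RD mice. WD tumour and RD no tumour did not overlap in it, although in nuclei thinned to 500 UMIs they did (WD tumour 1 had 8.75 and RD no tumour 1 had 8.73). No test was run on these ratios. Markers of other cells moved with this difference: in endothelial nuclei the summed level of 6 cholangiocyte markers was 180.1 to 267 CPM in the WD mice and 57.3 to 107.5 CPM in the tumour-free RD mice. For 4 mesothelial markers it was 51.3 to 64.2 CPM against 11.96 to 34.1 CPM, and none of either list was at 0 in a group. The low-count filter kept 3 of the 6 and 2 of the 4. Of the other markers, 5 of 6 for T and NK cells were higher in the WD mice (median log2 fold change 0.86). Lower were 6 of 6 hepatocyte (-0.36), 7 of 8 macrophage (-0.53) and 4 of 4 tested megakaryocyte markers (-1.97), and stellate markers were split 3 to 3. The median mitochondrial share of endothelial nuclei was 5.73%, 1.92% and 5.803% in the WD mice and 1.32%, 4.26% and 2.04% in the tumour-free RD mice. With nuclei of at most 5% mitochondrial UMIs the Clec4g fold change was -1.22 ± 0.54, and the part of the other cell types was not tested.

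The share of endothelial nuclei with a Clec4g UMI was also lower in every WD tumour mouse than in any RD no tumour mouse. It rests on the same UMIs as the CPM. It was 42.6%, 41.5% and 38.3% in the WD mice, 5.69% and 43.8% in the tumour-bearing RD mice, and 51.3%, 59.0% and 52.7% in the tumour-free RD mice. RD tumour 2 lay above every WD tumour mouse in this share, but below each of them in CPM. With each nucleus thinned to 500 UMIs, the shares were 20.5%, 13.8% and 16.5%, then 1.45% and 19.8%, then 23.6%, 27.6% and 23.7%. Thinned nuclei without a gate gene had a Clec4g UMI at 1.15% to 2.97% over the 8 mice, so the value in RD tumour 1 was inside the background range. The unthinned medians were 1689 to 2611 UMIs per endothelial nucleus and 912 to 4215 per nucleus with no gate.

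Stab2 was 965.5, 1540 and 732 CPM in the endothelial nuclei of WD tumour mice and 1466, 1315 and 1275 CPM in the tumour-free RD mice. WD tumour 2 was above, and the other 2 WD tumour mice below, all of the RD no tumour mice (log2 fold change -0.32 ± 0.34 SE, edgeR adjusted p = 1.00). Stab1 was 240, 214.5 and 280 CPM against 259, 361 and 201 CPM (-0.16 ± 0.28), and Gata4 184, 143 and 204 CPM against 146, 251 and 110.5 CPM (0.06 ± 0.58). Both overlapped. Oit3 was 56.5, 34.8 and 59.0 CPM against 52.5, 129.7 and 49.5 CPM (-0.62 ± 0.43), with RD no tumour 2 setting the higher mean.

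Lyve1 varied widely among mice of a group. It was 71.3, 32.2 and 122.3 CPM in the WD mice, 74.5 and 39.0 CPM in the tumour-bearing RD mice, and 62.7, 88.6 and 9.41 CPM in the tumour-free RD mice. RD no tumour 3 held 61 Lyve1 UMIs in 1633 endothelial nuclei, where the other 7 mice held 146 to 487. Its Stab2 level was 1275 CPM, close to the 2 other mice of its group, so Stab2 was not low in that mouse. The comparison of WD tumour with RD no tumour gave 0.49 ± 0.78 for Lyve1, with -0.05 when WD tumour 3 was left out and 1.07 when RD no tumour 2 was.

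The capillarization members gave no common direction between these 2 groups. Vwf was 35.3, 102 and 43.4 CPM in the WD mice and 77.6, 48.5 and 16.8 CPM in the tumour-free RD mice (0.34 ± 0.60). Cd34, measured on 17 to 61 UMIs per mouse, was 5.60, 13.4 and 7.28 CPM against 7.53, 8.14 and 2.62 CPM (0.55 ± 0.58). Plvap lay on the other side, at 17.6, 16.5 and 14.3 CPM against 34.9, 37.0 and 15.9 CPM (-0.85 ± 0.43, edgeR adjusted p = 1.00), where WD tumour 1 and 2 lay above RD no tumour 3. Per 100 pan-endothelial UMIs, Plvap was 0.69, 0.53 and 0.56 in the WD mice and 1.13, 1.09 and 0.80 in the tumour-free RD mice, without overlap, but in thinned nuclei the groups overlapped and the fold change was 0.13. Pecam1 was 220, 388 and 220 CPM against 322, 286 and 140 CPM (0.15 ± 0.44).

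Megakaryocytes also express Vwf, and blood progenitors Cd34. In endothelial nuclei, the summed level of 5 megakaryocyte markers ran from 5.42 to 14.5 CPM in the WD mice and from 5.41 to 74.5 CPM in the tumour-free RD mice, with none of the 5 at 0 in a group. For 4 markers of blood progenitors the ranges were 5.19 to 12.1 and 1.42 to 102.6 CPM, again with none at 0. Their part in the Vwf and Cd34 levels was not tested. WD tumour 2 was highest in Vwf, and without it the fold change of Vwf was -0.27.

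**Figure D3:**
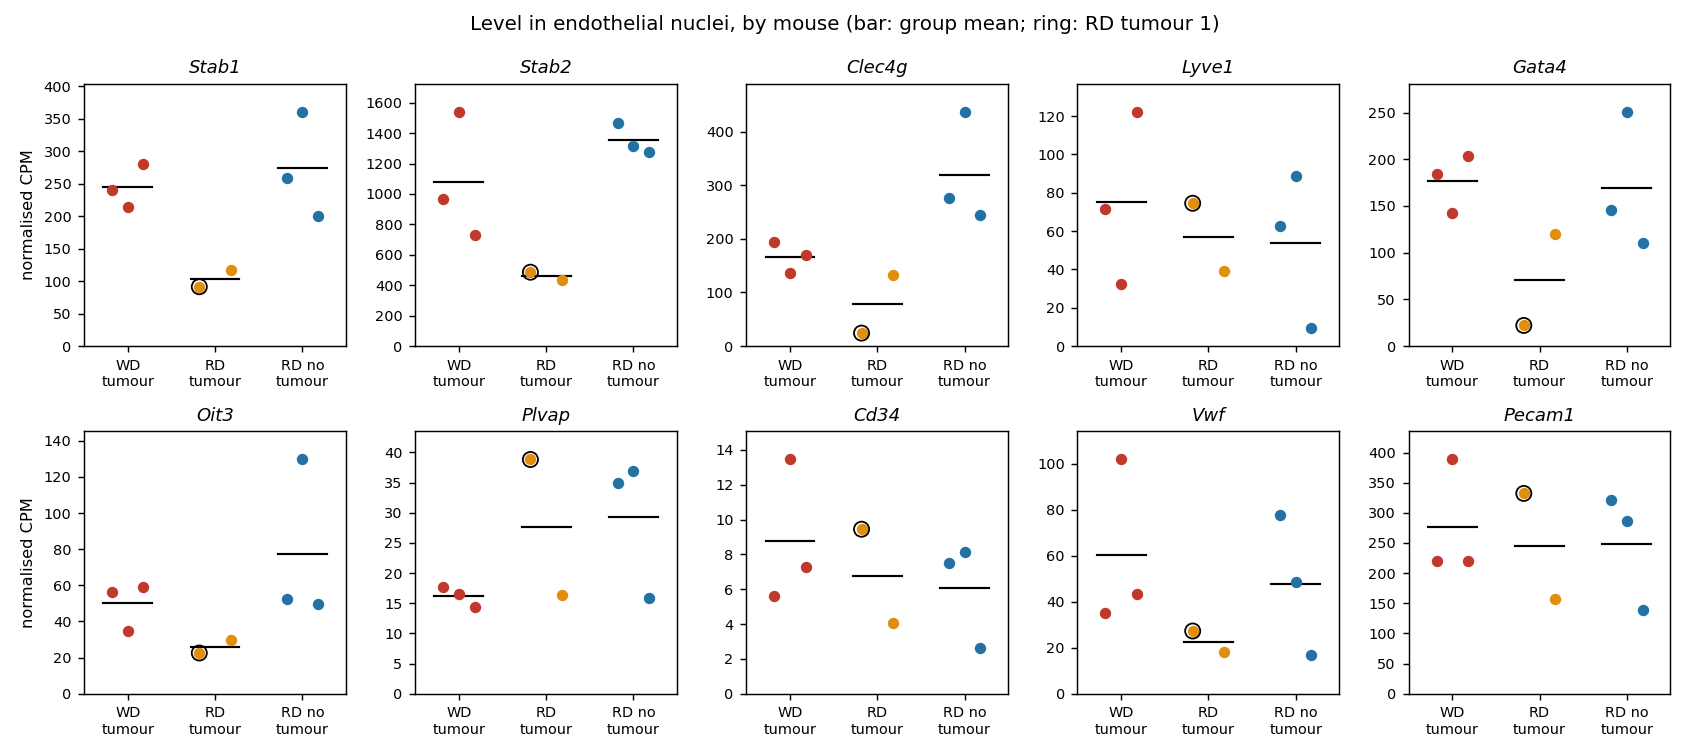
Normalised CPM in endothelial nuclei (y axes, from 0) for each gene, 1 point per mouse, by group (x axes). Bars are group means and the ring marks RD tumour 1. Clec4g is lower in every WD tumour mouse than in any RD no tumour mouse, and both RD tumour mice are low in Stab1 and Stab2.

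Read as summed UMIs, the 3 capillarization genes per 100 UMIs of the 6 sinusoidal genes stood at 3.42, 6.28 and 4.15 in the endothelial nuclei of WD tumour mice. The ratio was 10.5 and 4.42 in the tumour-bearing RD mice and 5.30, 3.63 and 1.87 in the tumour-free RD mice. RD tumour 1 was highest and RD no tumour 3 lowest, and the 3 groups overlapped. Stab2 had the most UMIs of the 6 sinusoidal genes in each mouse.

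In the RD tumour mice, the sinusoidal receptors were low in endothelial nuclei. Stab2 was 485 and 431 CPM in RD tumour against 1466, 1315 and 1275 CPM in the tumour-free RD mice, and the groups did not overlap. Stab1 was 91.3 and 116 CPM against 259, 361 and 201 CPM, also without overlap. Their log2 fold changes were -1.56 ± 0.40 and -1.40 ± 0.33 (SE). The edgeR adjusted p was 0.670 for both.

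Clec4g (24.1 and 132 CPM against 276, 437 and 244) and Oit3 (22.6 and 29.7 CPM against 52.5, 129.7 and 49.5) did not overlap either. Their fold changes were -2.02 ± 0.67 and -1.56 ± 0.50. The same 4 members had an unadjusted p under 0.05, where 3.65% of all genes were lower at that level, and 9.3% of all genes were lower without overlap. DESeq2 gave adjusted p-values of 0.0265 for Stab1 and 0.0188 for Stab2, and 0.391% of genes were called lower by it. Gata4 was 22.04 and 120 CPM, so that RD tumour 2 lay inside the RD no tumour range (-1.24 ± 0.68, or -0.49 without RD tumour 1).

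The other 5 members overlapped between the groups. Lyve1 had a log2 fold change of 0.08 ± 0.86, Plvap of -0.09 ± 0.47, Cd34 of 0.14 ± 0.65 and Pecam1 of -0.03 ± 0.49. Plvap was 38.8 and 16.3 CPM in the tumour-bearing RD mice, at the top and near the bottom of the range of the 8 mice. Vwf was 27.3 and 17.99 CPM (-1.08 ± 0.70), overlapping with RD no tumour 3. RD tumour 1 set several of these values: without it, Lyve1 was -0.44 ± 1.16, Plvap -0.83 ± 0.50, Cd34 -0.55 ± 0.77, Pecam1 -0.66 ± 0.57 and Vwf -1.39 ± 0.95. The edgeR adjusted p of these 5 was then 0.906 to 0.978, and all 10 members had a negative sign.

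Other endothelial genes had lower values in the same nuclei. All 15 pan-endothelial genes had a negative fold change in RD tumour against RD no tumour (median -1.19), as did 12 of 12 other sinusoidal genes (median -1.56), beside a median of 0.03 over all genes tested and -1.48 for the 6 sinusoidal members. Without RD tumour 1 the 15 and the 12 genes kept a negative sign, with medians of -1.08 and -1.14. Per 100 pan-endothelial UMIs, Stab2 was 44.6 and 30.1 in the tumour-bearing RD mice and 47.3, 38.9 and 63.9 in the tumour-free RD mice, and Stab1 was 8.38 and 8.11 against 8.36, 10.7 and 10.1. On that scale both genes overlapped between the groups, and the ratio of group means was 0.75 for Stab2 and 0.85 for Stab1. The part that this general difference has in the levels per 1000000 UMIs was not tested beyond these ratios.

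RD tumour 2 also differed in the makeup of its endothelial nuclei. They carried 36.9% of the UMIs of the library, against 14.5% to 21.8% in the tumour-free RD mice, and 43.8% of them were mixed nuclei against 27.2% to 31.9%. The part of this in the fold changes was not tested beyond the refits that follow. Over all 21 alternatives, the fold change ran from -1.60 to -0.995 for Stab1 and from -1.71 to -1.27 for Stab2. It ran from -3.74 to -1.23 for Clec4g and from -1.80 to -0.561 for Oit3. Fits that left out a mouse took Oit3 no further than -0.959. In nuclei thinned to 500 UMIs, RD tumour and RD no tumour overlapped in these genes relative to pan-endothelial UMIs. The ratio of group means was then 0.95 for Stab1, 0.77 for Stab2, 0.51 for Clec4g and 1.25 for Oit3. Without the mixed nuclei, the fold changes were -1.32 ± 0.40 for Stab1, -1.44 ± 0.54 for Stab2, -1.57 ± 0.79 for Clec4g and -1.33 ± 0.44 for Oit3. Without RD tumour 1 they were -1.23, -1.64, -1.26 and -1.37, with adjusted p-values from 0.797 to 0.853, and 1 RD tumour mouse is then assumed to vary like the other groups. Without RD tumour 2, Clec4g was -3.74 and Gata4 -2.95, with adjusted p-values of 0.022 and 0.034, in a fit that called 1827 genes and rested on RD tumour 1 alone.

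Lyve1, Plvap, Cd34 and Pecam1 were higher per 100 pan-endothelial UMIs in both RD tumour mice than in any RD no tumour mouse. The divisor was itself lower in RD tumour, where 15 of 15 pan-endothelial genes had a negative fold change (median -1.19). In CPM the fold changes of the 4 members were 0.08, -0.09, 0.14 and -0.03, so a gene of even CPM is raised on this scale. The share of all genes that separate the groups on it was not computed. RD tumour 1 had 6.84 for Lyve1, 3.57 for Plvap, 0.87 for Cd34 and 30.5 for Pecam1. RD tumour 2 had 2.72, 1.14, 0.28 and 10.95, and the highest RD no tumour values were 2.62, 1.13, 0.24 and 10.4. Without RD tumour 1 the remaining margin was thus small for all 4 genes, and it was not tested. In nuclei thinned to 500 UMIs, Lyve1, Plvap and Pecam1 were also higher without overlap, while Cd34 rested there on 1 to 4 UMIs in each RD mouse. Plvap rested on few UMIs as well: in thinned RD tumour 1, Plvap, Cd34 and Vwf together had 5 UMIs, beside 143 pan-endothelial UMIs. With the gate set at 0.2% of UMIs, Cd34 overlapped between the groups.

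The comparison of WD tumour with RD tumour mirrors these values, since it shares both groups with the others. Stab1 (log2 fold change 1.24 ± 0.33 SE), Stab2 (1.24 ± 0.40), Clec4g (1.08 ± 0.65), Gata4 (1.31 ± 0.68), Oit3 (0.94 ± 0.49) and Vwf (1.42 ± 0.70) were higher in the WD mice without overlap. These are 6 of 10 members, beside 12.3% of all genes. Of these, Stab1 and Stab2 had an unadjusted p under 0.05, beside 3.8% of genes that were higher at that level, and their edgeR adjusted p was 0.552. The 15 pan-endothelial genes were also higher in the WD mice in 15 of 15 cases (median 0.77), and per 100 pan-endothelial UMIs none of these 6 members separated the groups. Without RD tumour 1, the fold changes were 1.07 for Stab1, 1.32 for Stab2, 0.32 for Clec4g, 0.55 for Gata4, 0.75 for Oit3 and 1.74 for Vwf, and the median of the 15 genes was 0.88 with 14 of 15 positive. Plvap had the opposite sign (-0.76 ± 0.47), which was -0.02 without RD tumour 1.

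**Figure D4:**
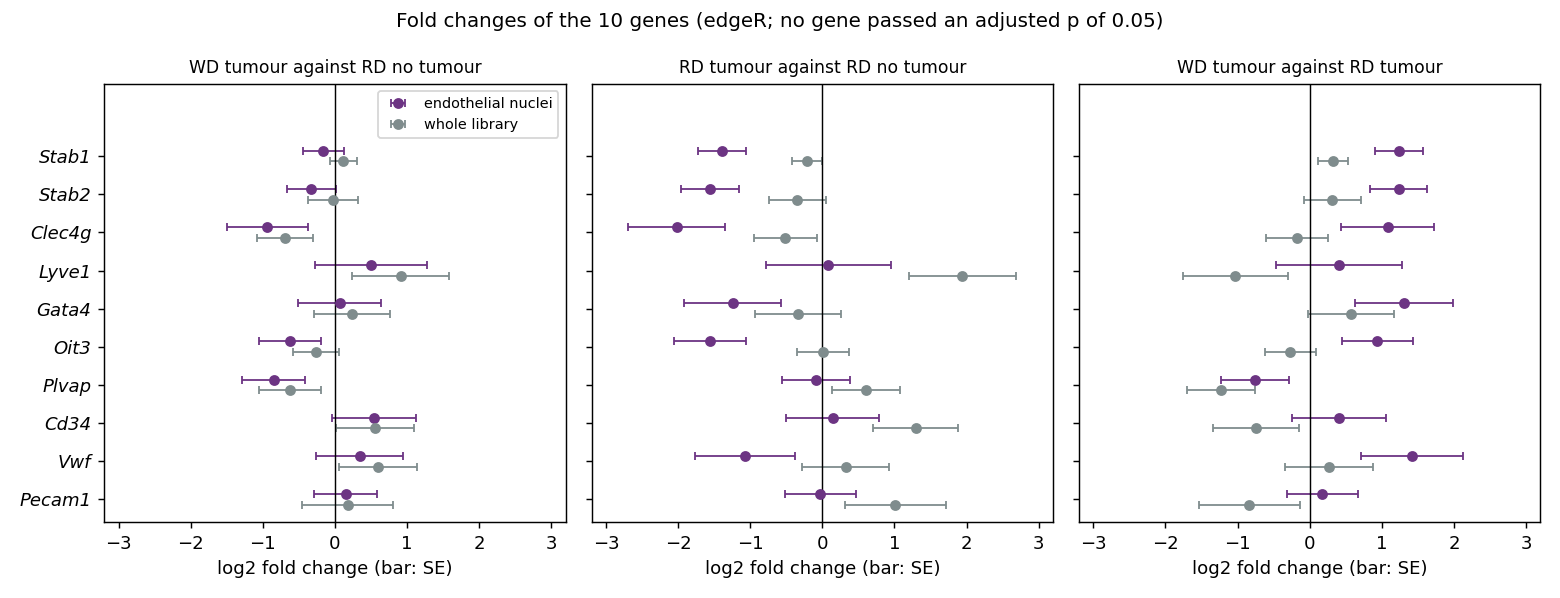
Log2 fold change with its standard error (x axes) of the 10 genes in the 3 comparisons (panels), in endothelial nuclei and in the whole library. In endothelial nuclei Stab2 reads -1.56 in RD tumour against RD no tumour and 1.24 in WD tumour against RD tumour, and the whole-library values of both are nearer 0.

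Over the whole library, a lower level can reflect fewer cells of a type or less RNA per cell, and the 2 cannot be told apart. Stab2 was 243, 375 and 169 CPM in the WD mice, 233 and 188 CPM in the tumour-bearing RD mice, and 261, 212 and 330 CPM in the tumour-free RD mice, and the 3 groups overlapped. Stab1 was more even, at 68.8, 67.0 and 71.7 CPM, then 49.8 and 60.6 CPM, then 64.6, 65.7 and 61.5 CPM. It was higher without overlap in the WD mice than in the tumour-free RD mice (0.11 ± 0.19, beside 5.87% of genes) and than in the tumour-bearing RD mice (0.33 ± 0.21, beside 12.2%), and lower in the tumour-bearing RD mice than in the tumour-free RD mice (-0.21 ± 0.21, beside 8.29%). These fold changes were smaller than or close to their standard errors, apart from the second, which was 0.19 without RD tumour 1. The third was -0.08 without that mouse. With nuclei of at most 5% mitochondrial UMIs, the first was -0.17 and the second -0.000231.

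Whole-library Lyve1 was 62.4 and 25.7 CPM in the tumour-bearing RD mice, 22.8, 11.04 and 30.9 CPM in the WD mice, and 14.2, 17.1 and 3.07 CPM in the tumour-free RD mice. The 2 RD tumour mice lay above each tumour-free mouse (1.94 ± 0.74 SE, edgeR adjusted p = 0.612), and without RD tumour 1 the fold change was 1.16 ± 0.87. Lyve1 was the 1 member higher at an unadjusted p under 0.05 there, beside 4.52% of genes. Cd34 was also higher without overlap (7.93 and 3.60 CPM against 3.28, 2.68 and 1.08 CPM, 1.29 ± 0.59, or 0.61 without RD tumour 1), and 7.3% of all genes were. Some macrophages express Lyve1, and the summed level of 8 macrophage markers was 611 and 1203 CPM in RD tumour against 345 to 913 CPM in the tumour-free RD mice, all 8 being detected. Taken singly, 4 of the 8 had a positive and 4 a negative fold change (median -0.04). The part of macrophages in the Lyve1 value was not tested.

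Plvap was lower in the WD tumour libraries (10.1, 13.5 and 8.64 CPM) than in the tumour-bearing RD mice (35.1 and 15.5 CPM), without overlap. The fold change was -1.23 ± 0.47 (edgeR adjusted p = 0.590), and without RD tumour 1 it was -0.53 ± 0.48. It was the 1 member lower at an unadjusted p under 0.05 in that comparison, beside 4.73% of genes, and 9.17% of genes were lower without overlap. RD no tumour mice had 23.7, 16.05 and 9.93 CPM of Plvap and overlapped with both. Clec4g was 51.6, 34.4 and 34.5 CPM in the WD mice and 51.1, 77.2 and 67.1 CPM in the tumour-free RD mice (-0.70 ± 0.39), where WD tumour 1 and RD no tumour 1 differed by less than 1 CPM.

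Splitting endothelial nuclei by Stab2 and Vwf separated some of the other members into a Stab2 side and a Vwf side. Nuclei with Vwf and no Stab2 UMI numbered 33 to 67 per mouse, and nuclei with Stab2 and no Vwf 481 to 1334. Clec4g, Lyve1 and Oit3 were higher in the Stab2-only nuclei in 8 of 8 mice, with median levels of 217 against 71.9 CPM for Clec4g, 70.5 against 34.1 CPM for Lyve1 and 54.4 against 23.4 CPM for Oit3. Pecam1 (243 against 655 CPM) and Plvap (13.7 against 85.5 CPM) were higher in the Vwf-only nuclei in 8 of 8. Stab2 and Vwf chose these nuclei, so their own levels are no result.

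Stab1 and Gata4 did not follow the other sinusoidal members. Gata4 was higher in Vwf-only nuclei in 7 of 8 mice (median 309 against 154 CPM), with RD tumour 1 as the exception, and Stab1 in 6 of 8 (315 against 265 CPM). Cd34 was higher in Vwf-only nuclei in 5 of 8, on 30 UMIs over all mice. Of 12 large-vessel genes, 10 were on the Vwf side in more mice than not, 8 of them in at least 7 mice. Sox17 and Efnb2, both known from arterial endothelium, were split 4 to 4, Gja4 was on the Vwf side in 5 of 8 and Sema3g, on 7 UMIs, in 4. Rspo3, a Wnt enhancer made by central vein endothelium, had 702 against 29.3 CPM, Selp, the adhesion molecule P-selectin, 107 against 13.6 CPM, and Bmx, a kinase gene of arterial endothelium, 61.6 against 1.77 CPM, each higher in 8 of 8 mice. Wnt9b, another central vein Wnt gene, was higher in 7 of 8. Mecom, a transcription factor gene from the pan-endothelial list, had 574 against 30.9 CPM (8 of 8). The Vwf side was not particular to large-vessel genes: 11 of 15 pan-endothelial genes were on it in more mice than not, 8 of them in at least 7 mice. Of 18 genes of continuous endothelium and basement membrane, 8 were on the Vwf side and 10 on the Stab2 side. The share over all genes was not computed.

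Of 12 other sinusoidal genes, 10 were higher on the Stab2 side in more mice than not, 7 of them in at least 7 mice. The mannose receptor gene Mrc1 had 584 CPM in Stab2-only and 236 CPM in Vwf-only nuclei, the nuclease gene Dnase1l3 127 and 17.1 CPM, and the integrin-binding gene Adam23 847 and 184 CPM, each higher on the Stab2 side in 8 of 8 mice. F8, the gene of clotting factor VIII, was on the Vwf side in 7 of 8, and so was Tll1, a protease gene (118 against 1.17 CPM). Gpr182 and Ehd3 were on the Stab2 side in 5 of 8. Of 14 listed regulators, 10 were on the Vwf side in more mice than not, among them Eng, Bmpr2 and Nr2f2 (7 of 8) and Acvrl1 and Smad6 (8 of 8), and Maf was on the Stab2 side in 8 of 8 (476 against 305 CPM). The split was not clean: 27.5% to 63.7% of the nuclei with a Vwf UMI also had a Stab2 UMI. Of 4 lymphatic markers, Mmrn1 gave 22 UMIs in all Vwf-only nuclei and Pdpn and Ccl21a 1 each, while Prox1 was higher in the Stab2-only nuclei in 8 of 8 mice.

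**Figure D5:**
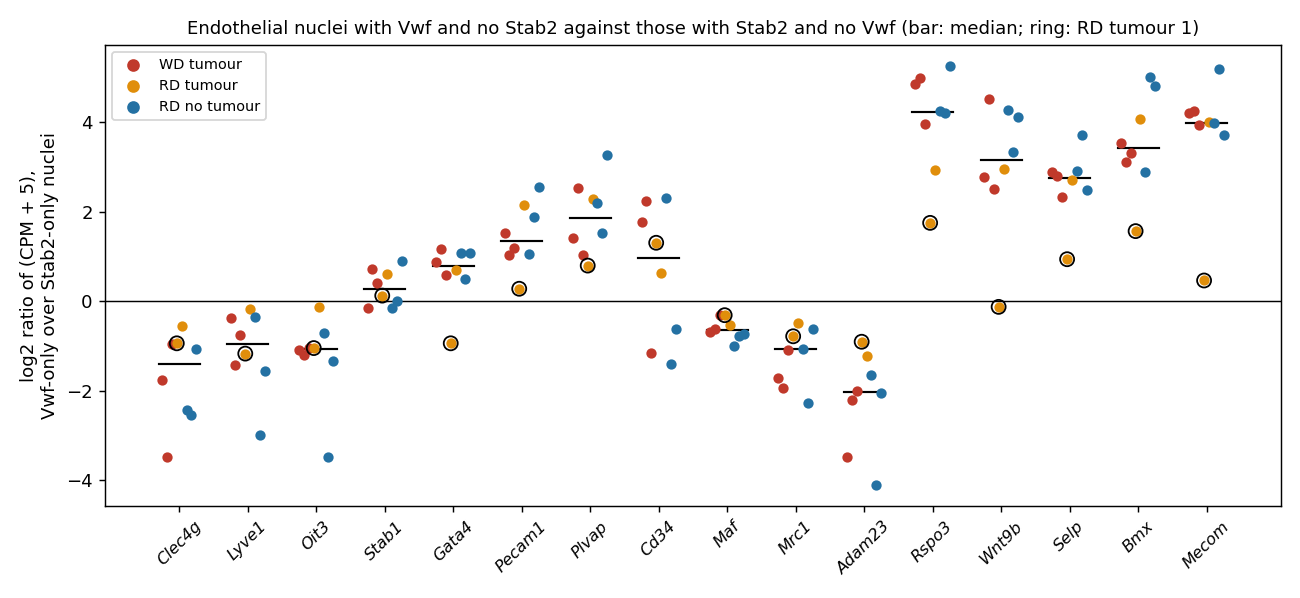
Log2 ratio of CPM + 5 in endothelial nuclei with Vwf and no Stab2 over those with Stab2 and no Vwf (y axis), for 16 genes (x axis), 1 point per mouse, with the median as a bar and RD tumour 1 ringed. Points of Clec4g, Lyve1 and Oit3 lie below 0 and those of Plvap, Pecam1, Rspo3 and Selp above 0 in 8 of 8 mice.

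Other genes of these programmes were counted from lists in endothelial nuclei, and none of their members passed the adjusted threshold. Between WD tumour and RD no tumour, 10 of 12 other sinusoidal genes had a negative fold change (median -0.71, against -0.24 for the 6 sinusoidal members and -0.03 over all genes). Those of lowest p were Dnase1l3 (90.8 ± 16.4 CPM against 155 ± 49.9, mean ± SD, n = 3 and 3) and Adam23 (616 ± 149 against 1054 ± 190). Of 16 tested genes of continuous endothelium and basement membrane, 11 had a positive and 5 a negative sign (median 0.16), and the basement membrane laminin gene Lamb1 was 13.5 ± 1.00 CPM against 6.32 ± 0.86. Of 11 large-vessel genes, 8 were negative (median -0.31), with the connexin gene Gja4 at 5.52 ± 1.79 against 14.6 ± 1.74 CPM.

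Among the listed regulators, Id3 and Id1 are targets of BMP signalling, which acts on sinusoidal endothelium through Acvrl1 and Eng. Id3, an inhibitor of basic helix-loop-helix factors, was 212 ± 27.6 CPM in endothelial nuclei of RD tumour (n = 2), 107 ± 24.6 CPM in the tumour-free RD mice and 61.1 ± 6.11 CPM in the WD mice (n = 3 each). The 3 groups did not overlap, and the share of all genes that separate all 3 was not computed. The fit gave 0.99 ± 0.27 over the tumour-free RD mice and -1.79 ± 0.28 for WD tumour against RD tumour (edgeR adjusted p = 0.670 and 0.531), or 1.125 ± 0.30 and -1.93 ± 0.29 without RD tumour 1. Id1, a related gene, was 44.3 ± 17.1, 23.9 ± 4.10 and 18.5 ± 5.23 CPM in the same order. Over the 14 regulators, 3 were higher and 11 lower in the tumour-bearing RD mice than in the tumour-free RD mice (median -0.44). Id3 and Id1 were among the 3, so most of the list went the other way, Maf being 297 ± 62.1 against 574 ± 132 CPM. Whether BMP signalling differed was not tested. Without RD tumour 1, the median was -0.42, Id1 was 1.25 ± 0.34 and Maf -1.18 ± 0.37 (edgeR adjusted p = 0.741 and 0.797).

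By likeness over the 8 mice, the genes closest to Stab2 in endothelial nuclei among 8148 with a mean of at least 20 CPM were Asap1 (Pearson r = 0.97), Dysf (0.97), Cyyr1 (0.97), Kit (0.96) and Gm14211 (0.96). All 5 stayed above r = 0.94 over the 7 mice without RD tumour 1. Closest to Plvap were Selenok (0.99), Ifitm3 (0.98), Man2b1 (0.97), Tmx3 (0.96) and Ifngr1 (0.96), also above 0.94 in the 7 mice. The lists themselves were not stable. When ranked over the 7 mice, Dysf alone stayed among the 5 closest to Stab2, and Selenok and Ifitm3 alone among the 5 closest to Plvap. The points share their library and its depth, and the highest of so many correlations over 8 values is given only as a description.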

How the data were processed

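The authors deposited UMI counts, raw and unnormalised, per gene and barcode for each of 8 mice. Cell Ranger 7.0.0 and build mm10 are named in the submitters' processing notes, and the 10x 3′ v3.1 chemistry in the labels' protocols. Whether intronic reads were counted is not given in the sources used here. Counts were summed per mouse over nuclei with at least 300 genes, and over endothelial nuclei. Sums of all 8 mice were fitted in edgeR 4.0.16 (R 4.3.3) with TMM factors, the default low-count filter and the quasi-likelihood test, 3 groups and no covariate, and tested on simulated data. DESeq2 1.42.0 was an alternative. CPM by mouse and group are TMM-normalised, and those by nuclear class are not. Ratios per 100 UMIs, thinning to 500 UMIs and gates used Python 3.11.15. Named genes are all 10 members, up to 2 genes per list and comparison by lowest p, the 5 most like Stab2 and Plvap, and list genes in the Stab2 and Vwf split. The members and lists were chosen with earlier results of these data known. Labels name each library as 1 mouse. The gate that needs 0.2% of UMIs was added after the data were seen.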

Additional observations from a re-analysis of the deposited data

How the results depend on the processing

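Each processing choice was varied alone. Of 480 refits of member fold changes in the whole library, 447 kept their sign and their side of the threshold, 4 newly passed it and 29 changed sign. In endothelial nuclei 574 of 627 did, with 6 and 47. DESeq2 called 36, 64 and 108 genes in the whole library and 13, 79 and 74 in endothelial nuclei, in the order of the report. A block by library profile called 2 genes for WD against tumour-free RD mice in the whole library, and 2, with 4 for tumour-bearing against tumour-free RD mice, in endothelial nuclei. With a gate of 1 UMI the log2 difference in gate share was 0.088.

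With the replicate number as a block, 0 genes passed in the 6 fits. The labels tie these numbers to no litter or day, and deviations of same-numbered mice correlated from -0.60 to 0.45, so they share only a number.

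Log2 fold changes with the opposite sign to the report were as follows, and the cause was not tested. At most 5% mitochondrial UMIs, Stab1 -0.17 (whole library, WD against tumour-free RD mice), Stab1 -0.000231, Vwf -0.044 (whole library, WD against tumour-bearing RD mice), Gata4 -0.20, Pecam1 -0.10 (endothelial nuclei, WD against tumour-free RD mice), Plvap 0.049 (endothelial nuclei, tumour-bearing against tumour-free RD mice), Lyve1 -0.066, Pecam1 -0.074 (endothelial nuclei, WD against tumour-bearing RD mice). Block by library profile, Gata4 0.24, Oit3 -0.18 (whole library, tumour-bearing against tumour-free RD mice), Lyve1 -0.65, Cd34 -0.23 (endothelial nuclei, tumour-bearing against tumour-free RD mice). No low-count filter, Oit3 -0.0020 (whole library, tumour-bearing against tumour-free RD mice). Replicate block, Oit3 -0.0012 (whole library, tumour-bearing against tumour-free RD mice), Lyve1 -0.0067, Cd34 -0.053 (endothelial nuclei, tumour-bearing against tumour-free RD mice). At least 500 detected genes, Oit3 -0.013 (whole library, tumour-bearing against tumour-free RD mice). Without mixed nuclei, Stab1 0.23, Stab2 0.059 (endothelial nuclei, WD against tumour-free RD mice), Pecam1 0.052 (endothelial nuclei, tumour-bearing against tumour-free RD mice). Nuclei thinned to 500 UMIs, Stab1 0.068, Plvap 0.13 (endothelial nuclei, WD against tumour-free RD mice), Plvap 0.57, Pecam1 0.035 (endothelial nuclei, tumour-bearing against tumour-free RD mice). Gate of 3 UMIs, Lyve1 -0.054 (endothelial nuclei, tumour-bearing against tumour-free RD mice). Gate of 1 UMI, Plvap 0.15, Pecam1 0.28 (endothelial nuclei, tumour-bearing against tumour-free RD mice), Lyve1 -0.015, Pecam1 -0.12 (endothelial nuclei, WD against tumour-bearing RD mice). Gate genes at 0.2% of UMIs, Plvap 0.057 (endothelial nuclei, tumour-bearing against tumour-free RD mice), Cd34 -0.050 (endothelial nuclei, WD against tumour-bearing RD mice).

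Leaving out each mouse in turn gave 0 to 4569 called genes for tumour-bearing against tumour-free RD mice and 0 to 4438 for WD against tumour-bearing RD mice in the whole library, and 0 to 1827 and 0 to 2377 in endothelial nuclei. The highest counts arose without RD tumour 2, when RD tumour 1 stands alone and is assumed to vary like the other groups, and without RD tumour 1 the counts were 11, 0, 0 and 0. Member ranges that crossed 0 or a threshold follow. For WD against tumour-free RD mice (whole library), Stab2 -0.38 to 0.20, Oit3 -0.46 to 0.047, Vwf -0.050 to 1.11, Pecam1 -0.62 to 0.65. For tumour-bearing against tumour-free RD mice (whole library), Clec4g -1.41 to 0.023, Gata4 -1.92 to 0.40, Oit3 -0.19 to 0.35, Plvap -0.10 to 1.06, Vwf -0.054 to 0.84, Pecam1 -0.0070 to 1.59. For WD against tumour-bearing RD mice (whole library), Stab2 -0.035 to 0.51, Clec4g -0.72 to 0.71, Gata4 -0.16 to 2.16, Plvap -1.69 to -0.53, Vwf -0.38 to 0.65, Pecam1 -1.63 to 0.18. For WD against tumour-free RD mice (endothelial nuclei), Stab1 -0.33 to 0.11, Lyve1 -0.046 to 1.07, Gata4 -0.16 to 0.48, Vwf -0.27 to 0.93, Pecam1 -0.18 to 0.41. For tumour-bearing against tumour-free RD mice (endothelial nuclei), Clec4g -3.74 to -1.26, Lyve1 -0.44 to 0.64, Gata4 -2.95 to -0.49, Plvap -0.83 to 0.40, Cd34 -0.55 to 0.64, Pecam1 -0.66 to 0.40. For WD against tumour-bearing RD mice (endothelial nuclei), Clec4g 0.32 to 2.80, Lyve1 -0.13 to 0.94, Gata4 0.55 to 3.02, Cd34 -0.088 to 1.11, Pecam1 -0.25 to 0.81.

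Depth limits Cd34, which could not be fitted in thinned nuclei. RD tumour 1 kept 207 nuclei after thinning. With 2 or 3 mice a group, differences within this spread were not detectable.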
